A study of Mus musculus with 24 samples.

Results

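The replication-dependent histone gene clusters of the mouse were described here by the open-chromatin peaks over their genes. The set was chosen by position and name alone: mm10 protein-coding genes in chr13:21700000-23700000 or chr3:96200000-96300000 whose symbols mark them as H1, H2A, H2B, H3 or H4 genes, which gave 52 of 21631 coding genes. They comprised 4 linker H1, 15 H2A, 14 H2B, 9 H3 and 10 H4 genes. ATAC-seq, in which a transposase inserts adapters into accessible DNA, had been run on bone marrow B-cell progenitors sorted into 3 stages, pre-pro-B first, then pro-B, then small pre-B, from WT and Mki67-/- mice. Each stage and genotype had 4 libraries, 24 in all, and each library was represented by a list of narrow peaks. The Mki67-/- mice lack Ki-67, the protein encoded by Mki67 and a common marker of dividing cells. The labels limit the null allele to no cell type and give no age, sex, strain or further treatment for either genotype. Whether the 4 libraries of a group were separate mice is not given, so each p-value refers to the spread between libraries, which may be technical.

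Replication-dependent histone genes are transcribed mainly in S phase, when newly copied DNA is packaged into nucleosomes. Their mRNAs end in a stem-loop in place of a poly(A) tail, and many copies lie side by side in clusters that gather in a nuclear body with the co-activator NPAT. H2A, H2B, H3 and H4 form the nucleosome core, and H1 binds the linker DNA between nucleosomes. Early B-cell development alternates between proliferation and rest: pro-B and large pre-B cells divide, and small pre-B cells have largely left the cycle.

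The promoters of 48 members were found among the RefSeq sequences of GRCm38.p6. In the 250 bases before each start, 4 short motifs were searched on both strands: the CCAAT box, the TATA element as TATAAA, the octamer bound by Oct factors as ATTTGCAT, and an element known from H1 promoters as AAACACA. Members were counted once per gene, with a match in any of its promoter entries, and all promoters once per entry. The CCAAT box was present in 39 of the 48 members (81.2%) against 33.8% of all 32851 promoters. It was in 4 of 4 H1, 15 of 15 H2A and 12 of 12 H2B promoters, in 6 of 8 H3 promoters and in 2 of 9 H4 promoters. TATAAA was present in 22 members (45.8%) against 12.4% of all promoters, and it was in 6 of the 9 H4 promoters. ATTTGCAT was present in 9 members (18.8%) against 1.6% of all promoters, and those were 4 H2A and 5 H2B genes. AAACACA was present in 5 members (10.4%) against 6.25% of all promoters: in the 4 H1 genes and 1 H2B gene. In 8 pairs an H2A gene and an H2B gene lay side by side and divergent, with starts 164 to 249 bases apart. The 250 bases searched for each gene of such a pair took in all the bases between the starts and reached the partner gene. A motif between the starts was therefore counted for both genes.

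The 5 sequences shown belong to genes to which the comparisons return. They are written 5′ to 3′ on the gene's strand and end at the base before the start, with capitals marking matches to the 4 motifs on either strand. The linker gene H1f3 lies on the plus strand at chr13:23555032-23555807, and its promoter at chr13:23554782-23555031 holds CCAAT 51 bases and TATAAA 26 bases before the start. H2bc9 lies on the minus strand at chr13:23542923-23543444, with its promoter at chr13:23543445-23543694. H2ac7, on the plus strand at chr13:23574381-23574915, is divergent from H2bc7 at chr13:23573760-23574207, and the 173 bases between their starts are chr13:23574208-23574380. H4c4 lies on the plus strand at chr13:23581568-23581969, with its promoter at chr13:23581318-23581567. H4c18 lies on the minus strand at chr13:21831792-21832197, with its promoter at chr13:21832198-21832447. A match is a description of these letters and not a measured binding site.
H1f3: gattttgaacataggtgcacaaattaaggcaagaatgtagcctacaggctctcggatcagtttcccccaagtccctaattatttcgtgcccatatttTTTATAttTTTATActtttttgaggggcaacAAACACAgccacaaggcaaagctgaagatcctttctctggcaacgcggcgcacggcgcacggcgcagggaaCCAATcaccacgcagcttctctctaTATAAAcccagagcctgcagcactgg
H2bc9: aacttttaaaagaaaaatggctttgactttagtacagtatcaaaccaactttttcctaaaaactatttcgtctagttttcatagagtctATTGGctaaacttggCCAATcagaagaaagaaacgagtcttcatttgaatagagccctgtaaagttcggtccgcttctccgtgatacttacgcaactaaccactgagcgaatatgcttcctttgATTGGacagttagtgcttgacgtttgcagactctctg
H2ac7: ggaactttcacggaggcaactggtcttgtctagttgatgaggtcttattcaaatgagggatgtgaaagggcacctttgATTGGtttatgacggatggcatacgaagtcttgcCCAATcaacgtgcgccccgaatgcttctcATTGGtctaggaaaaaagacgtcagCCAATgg
H4c4: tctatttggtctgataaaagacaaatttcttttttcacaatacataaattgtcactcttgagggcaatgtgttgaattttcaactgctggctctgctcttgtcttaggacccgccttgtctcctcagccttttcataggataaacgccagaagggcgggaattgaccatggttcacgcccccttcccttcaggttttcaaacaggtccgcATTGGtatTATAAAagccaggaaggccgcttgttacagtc
H4c18: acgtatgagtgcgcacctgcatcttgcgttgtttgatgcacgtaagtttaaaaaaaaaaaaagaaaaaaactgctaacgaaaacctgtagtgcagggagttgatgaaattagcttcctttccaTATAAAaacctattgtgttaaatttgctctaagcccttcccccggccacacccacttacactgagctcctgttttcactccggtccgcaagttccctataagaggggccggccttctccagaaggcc
The H1f3 sequence holds 3 of the 4 motifs, and the H4c18 sequence holds TATAAA but no CCAAT.

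The members fell into 4 subclusters. Subcluster 1 held 10 genes on chromosome 3 over 50.3 kb (chr3:96219885-96270192). On chromosome 13, subcluster 2 held 17 genes over 117.8 kb (chr13:21715711-21833475), subcluster 3 held 5 genes over 8.5 kb (chr13:22035122-22043658) and subcluster 4 held 20 genes over 167.4 kb (chr13:23531044-23698458). A peak was assigned to a gene where it touched the gene body or the 1000 bases on either side. Of the 52 members, 5 are longer than 1000 bases, and the longest, H2bc6, spans 37455. Its value is thus the strongest peak of a far wider window. Because most of the genes are short and close, the windows of the 52 members joined into 27, and neighbours often shared a peak and so had identical values. Members called together are therefore also given as joined windows.

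Deposited lists held 54387 to 88946 peaks after overlapping entries were merged, so the 40000 strongest by the authors' −log10 q-value were compared. Background coverage, recovered from the fold enrichments and p-values, ranged from 1.86 to 5.3 reads. The group means for Mki67-/- were 3.26, 2.92 and 2.58 from the earliest to the latest stage and those for WT were 4.29, 3.15 and 3.12, so Mki67-/- had the lower mean each time. Mki67 itself had a peak in all 24 libraries of both genotypes, but where its null allele lies is not given in the sources used here, so this checks nothing. Of 10 B-lineage marker genes, 6 had a peak in all 4 WT and 5 in all 4 Mki67-/- libraries of pre-pro-B cells, against 10 in both pro-B groups and 9 in both small pre-B groups. Vpreb1, which encodes part of the surrogate light chain, had none in pre-pro-B cells. Of 5 T-cell markers, 3 had a peak in all 4 libraries of each pre-pro-B group, 1 (Cd4) did so in each pro-B group and 0 in either small pre-B group. Of 4 erythroid markers, 4 did so in each pre-pro-B group, and 2 in WT and 3 in Mki67-/- pro-B cells. Of 5 myeloid markers, Csf1r alone did so in each group, and Mpo, Elane, Cebpe and S100a8 had none in pre-pro-B or pro-B cells. The part of these other cell types in the stage comparisons was not tested.

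Peaks covered nearly the whole set in every library. A deposited peak lay in the window of 49 of the 52 members in all 24 libraries, against 62.2% of coding genes, and of 45 members in all 24 when only the 40000 strongest peaks were kept. At the gene's own start, 38 of the 48 members with a RefSeq promoter had a peak in all 24 libraries (79.2%) against 49.5% of coding genes. H2bc23 was the 1 member without a peak among the strongest 40000 in any library. H1f6, the testis linker histone H1t, had no peak at its start in any library, and its window took in the peak of its neighbour H4c3. H2ac23 and H2ac24 had none at their start either.

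Peak strength was expressed as a percentile rank: the position of the strongest peak in a gene's window among the library's 40000, as a percent, so that a low value is a strong peak and 100 means that none of the 40000 was there. The median member stood at 17.1. By family the middle values were 13.2 for H2B, 17.1 for H2A, 17.2 for H1, 21.3 for H3 and 30.2 for H4. The strongest peak was shared by H2ac6 and H2bc4, with a median rank of 6.05 over the 24 libraries, followed by H3c6 at 7.56 and by the peak of H3c13 and H2bc18 at 8.68. At the other end stood H2bc23 at 100, H2ac24 at 86.8, H3c14 at 80.2, H4c12 at 72.7 and H4c18 at 68.1.

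H2ac6 ranked 5.75, 5.09, 5.36 and 9.48 in WT pre-pro-B cells and 3.02, 8.57, 2.49 and 2.85 in Mki67-/- pre-pro-B cells. At the pro-B stage H2ac6 ranked 7.65, 12.3, 8.50 and 7.24 in the WT libraries and 10.4, 7.44, 6.09 and 5.16 in the Mki67-/- ones. At the small pre-B stage it ranked 10.8, 7.33, 6.62 and 6.01 in the WT libraries and 5.12, 4.80, 3.81 and 4.70 in the Mki67-/- ones. This core histone promoter was thus among the strongest peaks in every library, and its 4 Mki67-/- small pre-B values all lay below the 4 WT values. H4c18, an H4 gene of subcluster 2, ranked 68.3, 89.4, 70.5 and 59.8 in the WT and 74.1, 80.8, 66.0 and 66.0 in the Mki67-/- libraries of pre-pro-B cells, and the genotypes overlapped there. In small pre-B cells it was at 100, 100, 100 and 93.9 in WT and at 68.4, 56.0, 60.4 and 72.6 in Mki67-/-. In WT small pre-B cells 3 of 4 libraries thus had no peak for H4c18 among the strongest 40000, while the 4 Mki67-/- libraries had one. A deposited peak lay in the H4c18 window in all 24 libraries, so a rank of 100 here means a weaker peak and not an absent one.

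**Figure D1:**
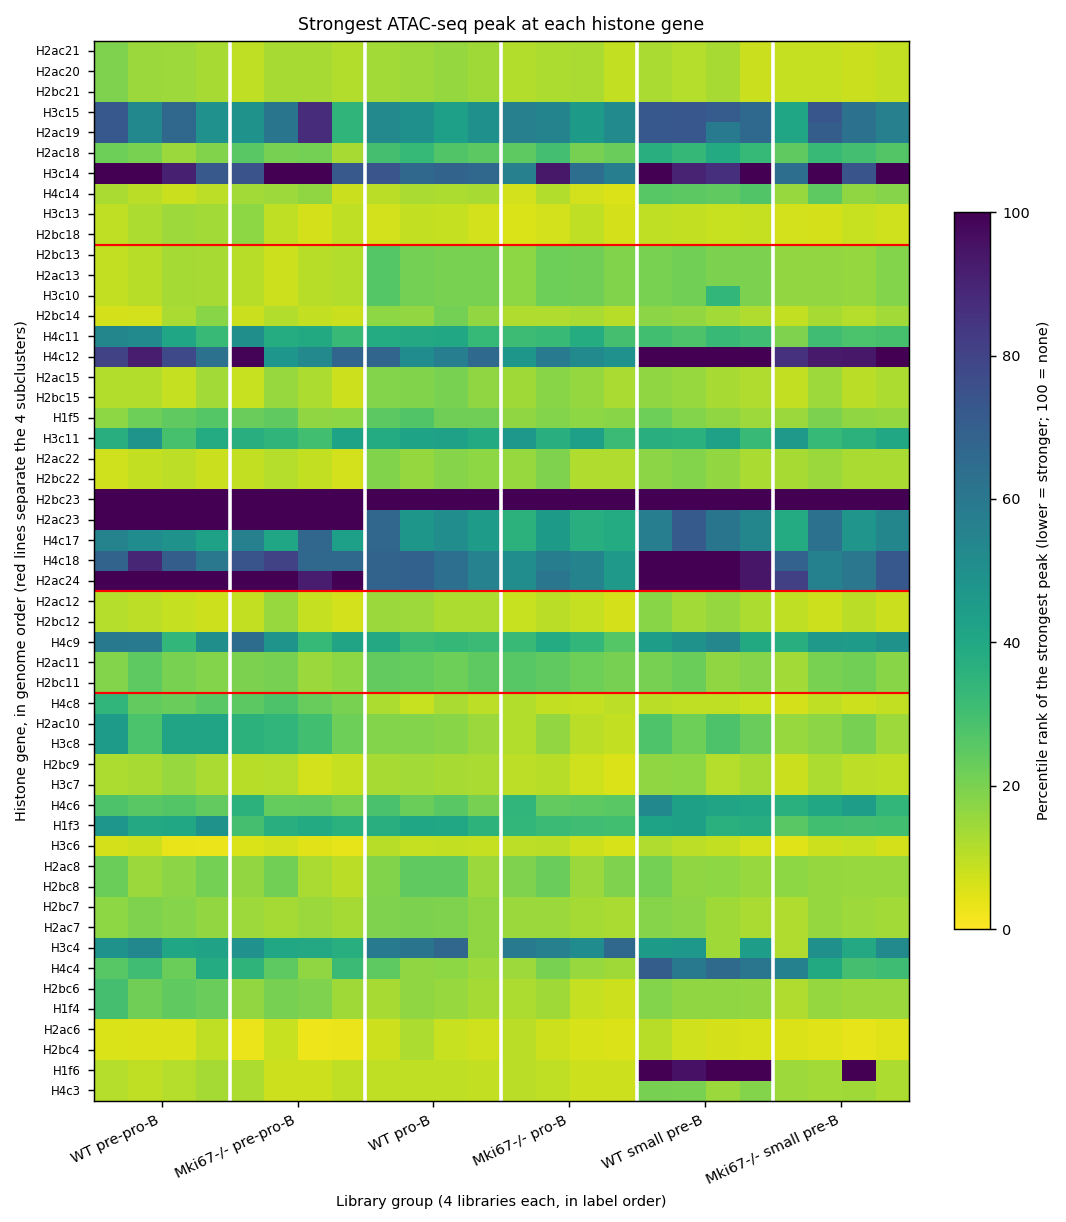
Percentile rank of the strongest peak in the window of each member (vertical axis, genome order, with red lines between the 4 subclusters) in each of the 24 libraries (horizontal axis, 4 per group); colour runs from 0 (strongest) to 100 (none of the 40000). Most members are strong in every library, H2bc23 is at 100 throughout, and H2ac24, H3c14, H4c12 and H4c18 are weakest among the rest by this rank.

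The first question the design poses is how the clusters differ between stages of B-cell development. Each stage comparison set 8 libraries against 8, both genotypes, in a two-sided exact permutation test within genotype for each coding gene with a peak in at least 4 of the libraries. P-values were adjusted by Benjamini-Hochberg over all genes tested, with a threshold of 0.05, and the smallest unadjusted p the design allows is 0.000408. Between pre-pro-B and pro-B cells, the rank of 29 of 51 members changed, 15 nearer the top and 14 farther from it. Over all genes tested, 74.4% changed, 33.4% nearer and 41% farther, so the members' share was below that of all genes. The median member moved by -0.62 and the median gene by 0.86. From pro-B to small pre-B cells, 27 of 51 members changed, 10 nearer and 17 farther, against 56.1% of all genes (30.3% nearer and 25.9% farther). From pre-pro-B to small pre-B cells, 27 of 51 changed, 14 nearer and 13 farther, against 74.6%. In these bulk libraries, fewer cells with an open site and less accessibility per cell cannot be told apart.

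The families did not move as one. For the H4 genes, 10 of 10 mean ranks were nearer the top in pro-B than in pre-pro-B cells, against 46.2% of genes, with a median shift of -9.17. Of these, 5 (H4c4, H4c8, H4c9, H4c12 and H4c18) passed the test as nearer, against 33.4% of all genes. From pro-B to small pre-B cells 8 of 10 means were farther, with a median shift of 12.2, while 53.9% of genes had nearer means. Of the 10, 7 (H4c3, H4c4, H4c6, H4c9, H4c12, H4c14 and H4c18) passed the test as farther, against 25.9% of all genes. H4c11 passed it as nearer, against 30.3% of all genes.

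H4c8 ranked 34.0, 23.9, 22.8 and 25.8 in the WT and 25.2, 28.1, 23.1 and 20.3 in the Mki67-/- libraries of pre-pro-B cells. Its pro-B ranks were 12.1, 8.33, 12.9 and 9.81 in WT and 11.5, 9.35, 8.91 and 9.94 in Mki67-/-. Every pro-B value was below every pre-pro-B value, with means of 10.3 ± 1.62 and 25.4 ± 4.18 (SD, n = 8 each; exact permutation test, adjusted p = 0.000885). By bases under peaks in its window H4c8 turned direction, and these fell by 189 in pro-B cells (exact permutation test, n = 8, adjusted p = 0.00754). In small pre-B cells H4c8 stayed at 8.86 ± 1.27, and that step did not pass the test (exact permutation, n = 8, adjusted p = 0.0893).

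H4c4 took the other course. Its ranks in pro-B cells were 24.9, 16.8, 17.1 and 14.7 in WT and 14.8, 20.1, 15.4 and 14.2 in Mki67-/-, and in small pre-B cells 70.6, 59.6, 65.5 and 60.6 in WT and 56.0, 39.3, 29.6 and 31 in Mki67-/-. The pro-B and small pre-B values did not overlap, and the means were 17.3 ± 3.63 and 51.5 ± 15.9 (SD, n = 8; exact permutation test, adjusted p = 0.00142). H4c12 ranked 67.3, 51.4, 57.2 and 65.9 in the WT and 47.0, 58.8, 52.0 and 49.3 in the Mki67-/- libraries of pro-B cells. In small pre-B cells H4c12 was at 100 in all 4 WT libraries and at 85.9, 92.8, 93.4 and 100 in Mki67-/-, so it lost its place among the strongest 40000 in 5 of 8 libraries (exact permutation test, n = 8, adjusted p = 0.00142).

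H4c14 on chromosome 3 ranked 10.5, 12.7, 12.4 and 13 in the WT and 6.79, 11.4, 6.94 and 5.13 in the Mki67-/- libraries of pro-B cells, and 26, 25.1, 24.5 and 27.3 in the WT and 15.4, 24.9, 16.7 and 18 in the Mki67-/- libraries of small pre-B cells. The 2 stages did not overlap, with means of 9.87 ± 3.11 and 22.2 ± 4.72 (SD, n = 8; exact permutation test, adjusted p = 0.00142). H4c11 moved the other way at this step: its mean rank was 28.6 ± 3.95 in small pre-B cells against 35.3 ± 4.14 in pro-B cells (SD, n = 8; exact permutation test, adjusted p = 0.00343). With the window confined to the H4c11 gene body, the difference was 7.01 in the opposite direction.

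**Figure D2:**
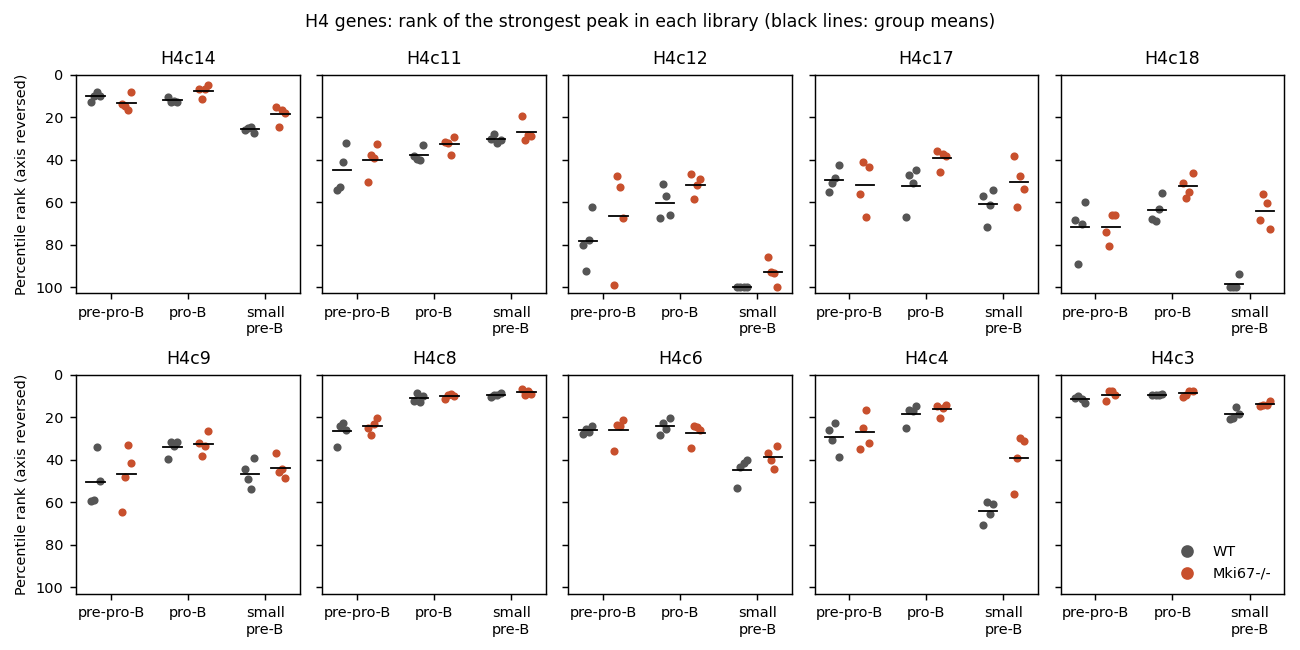
Percentile rank of the 10 H4 genes (vertical axis, reversed so that strong peaks are at the top) by stage (horizontal axis) and genotype (grey WT, orange Mki67-/-); points are libraries and black lines group means. H4c8 is stronger in pro-B than in pre-pro-B cells and stays so, whereas H4c4 and H4c18 are weakest in WT small pre-B cells.

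Among H3 and H2A genes, the peak shared by H3c8 and H2ac10 ranked 44.6, 28.1, 41.8 and 41.5 in the WT and 35.7, 34.2, 30.4 and 22.2 in the Mki67-/- libraries of pre-pro-B cells. In pro-B cells it ranked 18.7, 18.5, 17.6 and 15 in WT and 11.5, 16.4, 10.4 and 9.05 in Mki67-/-. The stages did not overlap, and the mean went from 34.8 ± 7.70 to 14.6 ± 3.84 (SD, n = 8; exact permutation test, adjusted p = 0.000885). The summit of this peak lay a median of -153 bases from the H3c8 start and 1390 from the H2ac10 start (negative is upstream). For H2ac10 the direction turned, without passing the exact permutation test, by covered bases, with a difference of -73.4 (adjusted p = 0.349), and with an overlap of at least 50% of the peak, with a rank difference of 12.2 (adjusted p = 0.447). H2ac23 had none of the strongest 40000 peaks in any pre-pro-B library and a mean rank of 45.9 ± 10.0 in pro-B cells, where it shared the value of H4c17. H2ac24 likewise went from 99.1 ± 2.68 to 58.6 ± 8.02 with the peak of H4c18 (SD, n = 8; exact permutation test, adjusted p = 0.000885 for both genes).

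The opposite shift was seen at the shared peak of H2ac13, H2bc13 and H3c10. It ranked 9.21, 10.8, 13.7 and 13 in the WT and 10.9, 7.45, 10.8 and 11.5 in the Mki67-/- libraries of pre-pro-B cells, and 26.3, 21, 20.3 and 20.1 in the WT and 17.2, 22.1, 21.6 and 19.1 in the Mki67-/- libraries of pro-B cells. The values did not overlap, with means of 10.9 ± 1.96 and 21 ± 2.67 (SD, n = 8; exact permutation test, adjusted p = 0.000885). H2ac22 and H2bc22 moved the same way, from 8.85 ± 1.44 to 16 ± 2.87 (SD, n = 8; exact permutation test, adjusted p = 0.000885). Both moves were by the order of peaks: by covered bases in the window, H2ac13, H2bc13, H2ac22 and H2bc22 had 4.25, 79.1, 230 and 230 more bases under peaks in pro-B cells.

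From pro-B to small pre-B cells the H2A and H2B genes H2ac20, H2ac21 and H2bc21 of chromosome 3, which share 1 peak, moved nearer the top, from 13 ± 2.05 to 9.98 ± 2.00 for H2ac21 (SD, n = 8; exact permutation test, adjusted p = 0.00142). By covered bases all 3 turned direction: the bases under peaks fell by 122 for H2ac21, by 155 for H2ac20 and by 86.4 for H2bc21 (exact permutation tests, n = 8, adjusted p = 0.0279, 0.0165 and 0.0111). The summit of their shared peak lay a median of 1047 bases downstream of the H2ac21 start, so its rank is not that of the H2ac21 promoter. The shared peak of H2ac11 and H2bc11 moved from 23.5 ± 1.73 to 18.9 ± 2.81 (SD, n = 8; exact permutation test, adjusted p = 0.00437). With peaks ordered by the reads at their summit, the shift of H2ac11 had the opposite sign, at 2.57, and by covered bases its difference was -217 and did not pass the exact permutation test (adjusted p = 0.0817). The testis gene H1f6 went from 9.06 ± 0.969 to 67.0 ± 44.3 (SD, n = 8; exact permutation test, adjusted p = 0.00142). In the Mki67-/- small pre-B libraries, 3 of 4 H1f6 values equalled those of H4c3, and in WT none did. H4c3 itself went from 9.06 ± 0.969 to 16.2 ± 3.13 (SD, n = 8; exact permutation test, adjusted p = 0.00142).

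The number of peaks per window changed in few members. Between pre-pro-B and pro-B cells 5 of 51 members passed the test with more peaks (H3c15, H4c14, H4c11, H2ac23 and H2ac24) and 0 with fewer, against 38.6% of all genes changed. From pro-B to small pre-B cells 3 of 51 passed with more peaks (H2ac19, H4c8 and H1f4), against 18.4%, and over both steps 8 passed with more and H4c12 with fewer, against 37.4%. With entries not merged, the counts were 22 (13 more and 9 fewer) and 7 (all fewer). The counts thus depend on how overlapping entries are treated. The share of all genes that changed with entries not merged is not given, so the 22 and the 7 are not a result about the members.

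A stage pattern across the whole clusters appeared in the reads around the peaks. The peak caller sets each summit against a local background, the read coverage expected there from its surroundings, and this was recovered from the deposited fold enrichment and p-value and divided by the library's background coverage. The quantity was added after the data had been seen. It includes the reads of the peaks themselves, neighbouring genes share it, and the width over which it was taken is not given in the sources used here. Over all 24 libraries it was 12.2 times the library background for the median of the 45 members that had a peak in each, against 5.73 for the median of 11888 coding genes.

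The member median in pre-pro-B cells was 8.83, 11.4, 9.69 and 10.3 in the WT libraries and 10.5, 10.3, 11.9 and 13.4 in the Mki67-/- libraries. In pro-B cells it was 15.8, 17.4, 15 and 18 in WT and 19.2, 16.7, 20.2 and 20.7 in Mki67-/-. In small pre-B cells it was 11, 7.89, 10.7 and 12.2 in WT and 12.2, 12.9, 11.7 and 14.2 in Mki67-/-. Each pro-B library thus lay above each library of the other 2 stages. The median of all coding genes moved far less, between group means of 5.19 ± 0.516 and 6.38 ± 0.379 (SD, n = 4).

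Local background was higher in pro-B than in pre-pro-B cells for 48 of the 48 members tested, in 27 joined windows, against 42.9% of all genes higher and 77.1% changed in either direction. The median change was 0.71 on the log2 scale (1.64-fold) for members and 0.07 for all genes. It was 0.78 for H1, 0.70 for H2A, 0.71 for H2B, 0.68 for H3 and 0.99 for H4 genes. In 40 of the 48 the libraries of the 2 stages did not overlap, against 45.9% of genes. Subcluster 3 had the largest median change of the 4, 1.14 (2.20-fold), and subcluster 1 the smallest, 0.42 (1.34-fold). From pro-B to small pre-B cells it was lower for 45 of 46 members tested, in 24 joined windows, against 37.8% of all genes lower and 52% changed in either direction, with a median of -0.61 for members and -0.11 for genes. H3c6 was the exception (exact permutation, n = 8, adjusted p = 0.155). From pre-pro-B to small pre-B cells it was higher for 8 and lower for 8 of 45 members, against 73.4% of genes changed. Within WT alone the member medians for the first 2 steps were 0.75 and -0.65, and within Mki67-/- alone 0.71 and -0.59.

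H4c9 shows the course in single libraries. Around its peak the local background was 8.69, 11.8, 9.69 and 11.1 in the WT and 10.5, 10.6, 13.3 and 14.5 in the Mki67-/- libraries of pre-pro-B cells. In pro-B cells it was 21, 24.1, 21.1 and 24.2 in WT and 26.3, 22.7, 29.4 and 31.5 in Mki67-/-, and in small pre-B cells 11, 8.05, 10.6 and 12.2 in WT and 15.1, 14.6, 13 and 16.5 in Mki67-/-. All 8 pro-B values were above all others. The linker gene H1f3 had means of 10.1 ± 1.53, 20.9 ± 2.37 and 9.06 ± 2.12 at the 3 stages (SD, n = 8; exact permutation test, adjusted p = 0.000800 and 0.00155 for the 2 steps). H4c8 kept part of its gain, with means of 14.6 ± 2.06, 34.6 ± 2.68 and 24.6 ± 3.51. On the log2 scale the smallest rise of the members tested was 0.13, at the H2ac21 peak of chromosome 3, from 15 to 16.4 (exact permutation, n = 8, adjusted p = 0.0328).

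**Figure D3:**
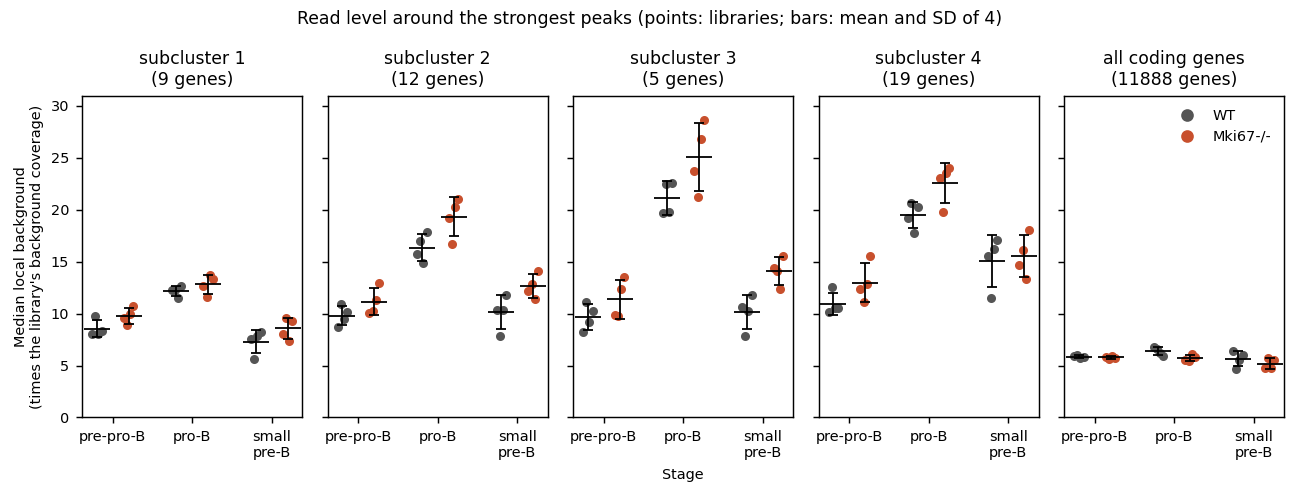
Median local background of the members of each subcluster and of 11888 coding genes, as a multiple of the library's background coverage (vertical axis), by stage (horizontal axis) and genotype (grey WT, orange Mki67-/-); points are libraries and bars mean and SD of 4. In each subcluster the pro-B means are the highest, up to 25.1 in Mki67-/- for subcluster 3, while the coding-gene means stay between 5.19 and 6.38.

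Genes that the naming rule or the intervals left out were compared. Of 14 other replication-dependent histone genes, 12 could be tested, and local background rose between pre-pro-B and pro-B cells in 11 and fell to small pre-B cells in 11, with medians of 0.90 and -0.78. Of 28 genes with roles in histone gene transcription, mRNA processing or histone chaperoning, 26 were tested at the first step, with 19 higher and 4 lower and a median of 0.51, and 17 of 27 were lower at the second. Of all genes tested, 42.9% were higher and 34.2% lower at the first step, and 37.8% lower at the second. By rank, 6 of the 28 moved nearer and 10 farther at the first step, against 33.4% and 41% of all genes. Neither share was above that of all genes. Npat, the co-activator of histone genes, went from 3.72 ± 2.00 in pre-pro-B to 1.16 ± 0.204 in pro-B cells (SD, n = 8; exact permutation test, adjusted p = 0.000885). Casp8ap2, which encodes the histone body protein FLASH, was at 0.474 and 1.91 and moved farther at the same adjusted p. Pou2af1, the B-cell co-activator of Oct factors, had no peak among the strongest 40000 in pre-pro-B cells and ranked 3.44 ± 0.954 in pro-B cells. Asf1b, a histone chaperone of dividing cells, went from 1.74 in pro-B to 8.18 ± 2.60 in small pre-B cells (SD, n = 8; exact permutation test, adjusted p = 0.00142).

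The second question is whether loss of Ki-67 goes with a difference in the clusters. Peak lists of the Mki67-/- libraries placed the histone genes nearer the top. Over the 3 stages, with 12 libraries of each genotype and labels permuted within stage, 13 of 51 members changed rank, all 13 nearer the top in Mki67-/-, in 7 joined windows. Over all genes tested 1.88% changed, 1.19% nearer and 0.687% farther. The median member difference was -3.17 and the median gene difference 0.11. Means were nearer the top in Mki67-/- for 50 of 51 members, against 47.5% of genes. The 13 were the linker genes H1f3 and H1f4, the H2A genes H2ac7, H2ac10, H2ac20, H2ac21 and H2ac24, the H2B genes H2bc6, H2bc7, H2bc9 and H2bc21, and the H3 genes H3c7 and H3c8. All 10 H4 means were nearer the top and 0 of 10 passed the test. Without adjustment, 30 of the 51 members and 18.1% of all genes had p under 0.05.

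The call depends on the measure of peak strength and on a few libraries. With peaks ordered by fold enrichment in place of the q-value, 0 of 46 members passed and 25 of the 46 lay below 0. By covered bases 0 passed. With peaks ordered by summit reads, 29 of 51 passed, against 3.82% of genes. Without the 3 libraries that stood apart in an earlier analysis of these lists (Mki67-/- pre-pro-B 4, WT small pre-B 1 and Mki67-/- small pre-B 1), 3 of 51 passed and 47 of the 51 lay below 0, and without WT small pre-B 1 alone 8 passed. With background coverage as a covariate in limma, a linear model fitted across genes, 6 passed. No share over all genes is given for that fit or for these reduced sets of libraries. Those counts are therefore not a result about the members. Background coverage was lower on average in Mki67-/- at each stage, as given above.

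H1f3 had the smallest p of the members. It ranked 47.3, 39.8, 40.2 and 48.7 in the WT and 29.5, 37.0, 39.0 and 36.0 in the Mki67-/- libraries of pre-pro-B cells. Its pro-B ranks were 37.1, 40.8, 40.3 and 35.2 in WT and 33.8, 31.9, 30.6 and 30.5 in Mki67-/-, and in small pre-B cells 42.2, 43.0, 36.7 and 37.7 in WT and 25.5, 30.3, 29.4 and 30.4 in Mki67-/-. At each stage all 4 Mki67-/- values were below all 4 WT values, and the means were 32.0 ± 3.78 against 40.7 ± 4.09 (SD, n = 12; exact permutation test, p = 5.83e-06, the smallest the design allows, adjusted p = 0.00624). The call was kept in 36 of 38 alternatives, with adjusted p from 0.00176 to 0.701. A peak reached the H1f3 start in all 24 libraries. The summit of the ranked peak lay a median of 1096 bases downstream of the start, with a range of -23 to 1183. The gene is 776 bases long, so the rank is not a measure of the promoter alone.

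The peak of H2bc9 and H3c7 ranked 12.4, 13, 15.2 and 12.9 in the WT and 10.9, 11.1, 6.92 and 8.76 in the Mki67-/- libraries of pre-pro-B cells. Its pro-B ranks were 13.2, 14, 12.9 and 12.6 in WT and 9.86, 10.7, 7.31 and 5.37 in Mki67-/-, and in small pre-B cells 16.8, 16.9, 11.2 and 13.5 in WT and 8.19, 12.4, 9.82 and 9.62 in Mki67-/-. The genotypes overlapped in small pre-B cells only, and the means were 9.24 ± 2.01 in Mki67-/- and 13.7 ± 1.75 in WT (SD, n = 12; exact permutation test, adjusted p = 0.00647).

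The linker gene H1f4, whose peak is shared with H2bc6, ranked 29.4, 21.6, 24.4 and 22.8 in the WT and 16.3, 20.5, 19.5 and 14.4 in the Mki67-/- libraries of pre-pro-B cells. It ranked 13, 16.7, 15.6 and 13.7 in the WT and 12.3, 14.2, 8.85 and 7.48 in the Mki67-/- libraries of pro-B cells, and 18.7, 16.8, 16.7 and 16.1 in the WT and 12, 15.9, 15.1 and 15.2 in the Mki67-/- libraries of small pre-B cells. The genotypes overlapped in pro-B cells only. The means were 14.3 ± 3.8 in Mki67-/- and 18.8 ± 4.84 in WT (SD, n = 12; exact permutation test, adjusted p = 0.0141). The summit of the ranked peak lay a median of 867.5 bases downstream of the H1f4 start, so the rank is not a measure of that promoter alone.

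The divergent pair H2ac7 and H2bc7 ranked 17.1, 19.4, 18.2 and 16.3 in the WT and 14.8, 13.4, 15.2 and 13.4 in the Mki67-/- libraries of pre-pro-B cells. In pro-B cells it ranked 19.4, 19.7, 19.5 and 16.8 in WT and 14.9, 14.9, 13.6 and 12.7 in Mki67-/-, and in small pre-B cells 18.2, 17.2, 14.4 and 12.6 in WT and 11.9, 15.8, 14.7 and 13.8 in Mki67-/-. The genotypes overlapped in small pre-B cells only, and the means were 14.1 ± 1.15 against 17.4 ± 2.21 (SD, n = 12; exact permutation test, adjusted p = 0.0323). By fold enrichment the difference had the opposite sign, at 0.377. By covered bases the direction also turned for both genes, at -87.4 for H2bc7, and neither passed the exact permutation test (adjusted p = 0.521 for H2bc7 and 0.449 for H2ac7).

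H2ac21, with H2ac20 and H2bc21, ranked 19.5, 15.2, 14.6 and 13.1 in the WT and 9.42, 12.9, 13.1 and 11.5 in the Mki67-/- libraries of pre-pro-B cells. In pro-B cells H2ac21 ranked 13.8, 14.5, 15.9 and 14.3 in WT and 11.4, 12.4, 12.8 and 9.28 in Mki67-/-, and in small pre-B cells 12.6, 11.2, 13 and 8.18 in WT and 8.78, 8.88, 7.93 and 9.26 in Mki67-/-. The genotypes overlapped in small pre-B cells only, through 1 WT library (10.6 ± 1.89 against 13.8 ± 2.71, SD, n = 12; exact permutation test, adjusted p = 0.0154). The summit of this shared peak lay a median of 1047 bases from the H2ac21 start and -52 from the H2ac20 start (negative is upstream). At the H2ac21 start itself, pro-B ranks were 52.3, 41.7, 46.1 and 34.4 in WT and 29.5, 38.4, 37.0 and 33.7 in Mki67-/-. The ranks above are therefore not a measure of the H2ac21 promoter. The remaining called peaks were those of H2ac24, at 73.0 ± 20.8 against 87.5 ± 17.8 (adjusted p = 0.0331), and of H3c8 and H2ac10, at 19.8 ± 9.12 against 27.2 ± 10.2 (exact permutation tests, n = 12, adjusted p = 0.0402). These 3 genes were the least stable of the 13: the call was kept in 20 of 35 alternatives for H2ac24, 16 of 38 for H3c8 and 12 of 38 for H2ac10. H2ac24 had a peak at its own start in 0 of the 24 libraries. In most libraries where it had a value, this came from the peak of H4c18, and H4c18 did not pass. The summit of the H3c8 and H2ac10 peak lay a median of 1390 bases downstream of the H2ac10 start.

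The linker gene H1f5 did not pass. It ranked 17.1, 21.9, 24.6 and 26.4 in the WT and 23, 24.5, 16.5 and 17 in the Mki67-/- libraries of pre-pro-B cells, 25.1, 27.2, 21.8 and 21.7 in the WT and 16.6, 18.5, 17 and 17.7 in the Mki67-/- libraries of pro-B cells, and 22.1, 18.5, 16.6 and 14.7 in the WT and 15.2, 19.9, 16.6 and 15.8 in the Mki67-/- libraries of small pre-B cells. Its genotypes were apart in pro-B cells only, with means over the stages of 18.2 in Mki67-/- and 21.5 in WT (exact permutation test, n = 12, adjusted p = 0.189). The summit of its ranked peak lay a median of 1133.5 bases downstream of the H1f5 start. Among other members that did not pass were H4c18 at 62.9 and 78.1 (adjusted p = 0.0848) and H4c4 at 27.4 and 37.3 (adjusted p = 0.170; exact permutation tests, n = 12).

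**Figure D4:**
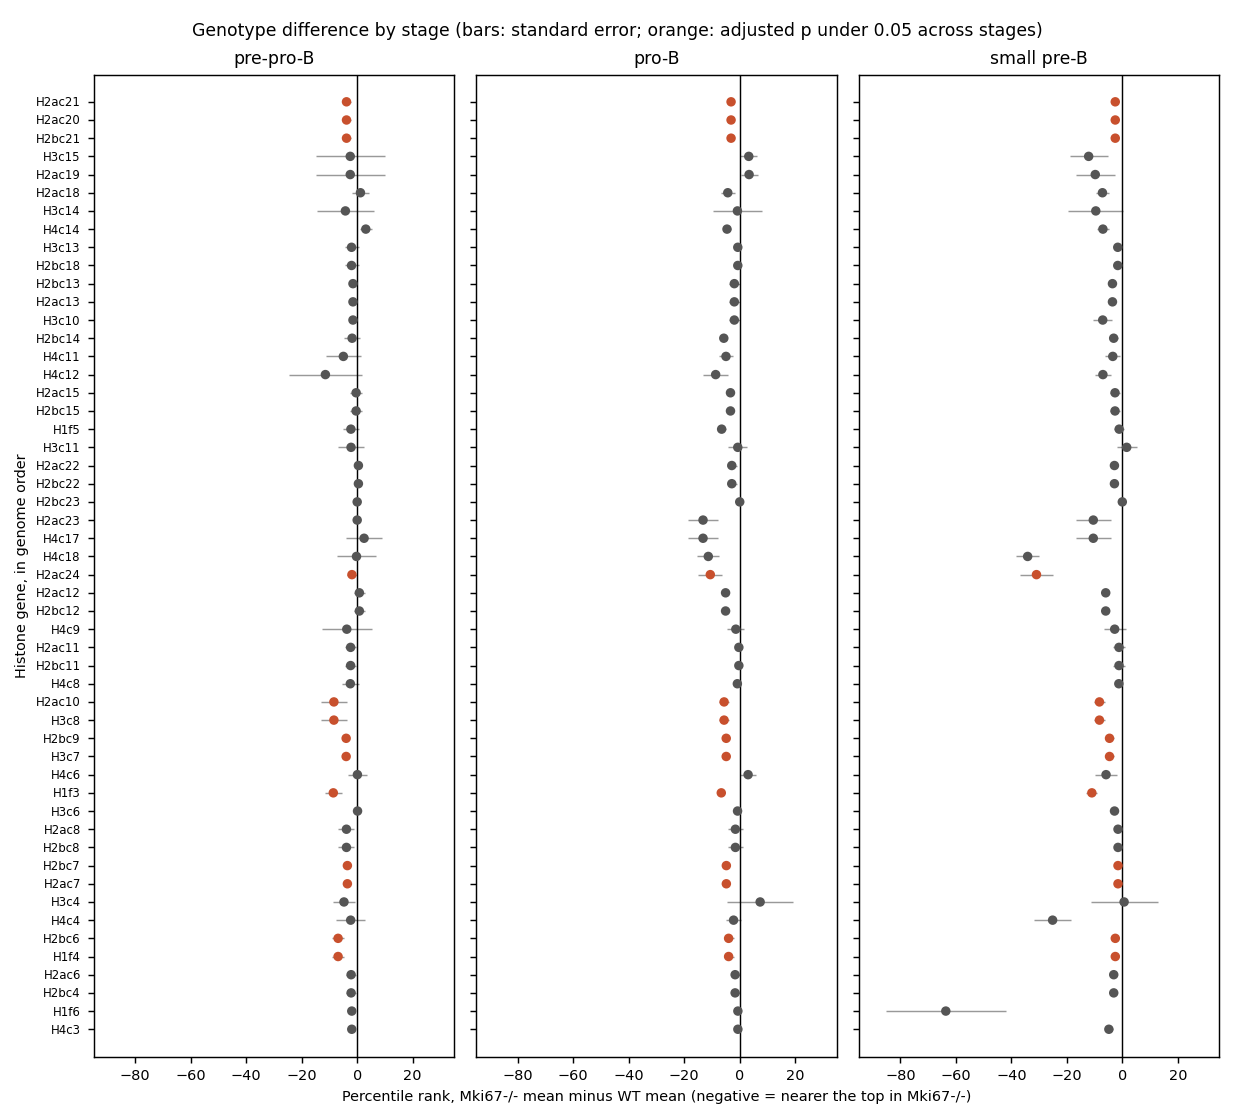
Difference in mean percentile rank, Mki67-/- minus WT (horizontal axis, percentile points), for each member (vertical axis, genome order) in each stage; bars are standard errors and orange marks the 13 members called across stages. Most points lie left of 0, nearer the top in Mki67-/-, and the points farthest left are H1f6, H4c18, H2ac24 and H4c4 in small pre-B cells.

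Within single stages, an exact permutation test of 4 libraries against 4 cannot go below p = 0.0286, and 0 members and 0 genes passed after adjustment. Groups that did not overlap were counted in their place. In pre-pro-B cells 10 of 49 members, in 5 joined windows, were nearer the top in all Mki67-/- libraries than in any WT library, against 1.64% of genes. In pro-B cells this held for 12 of 51 members in 7 joined windows, against 7.33%, and in small pre-B cells for 17 of 50 in 9 joined windows, against 5.98%. With 4 against 4 these are also the members with an unadjusted p under 0.05. The reverse held for 0 members at each stage, against 1.38%, 12.4% and 4.91% of genes. Whether the genotype difference itself differed between stages was tested for each pair of stages, and 0 members passed (exact permutation tests, n = 4, smallest adjusted p = 0.307). Without adjustment, 3, 1 and 5 of the members had p under 0.05 for pro-B against pre-pro-B, small pre-B against pro-B and small pre-B against pre-pro-B, where 12.3%, 13.5% and 7.48% of genes did.

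By the number of deposited peaks in their windows, 0 of 51 members passed the exact permutation test of genotype across stages, against 0% of genes, and 1 members and 4.03% of genes had an unadjusted p under 0.05. Peaks in the joined windows numbered 47.2 ± 1.71 for WT against 47.5 ± 1.91 for Mki67-/- at the pre-pro-B stage, 54.8 ± 1.71 against 56.2 ± 1.71 at the pro-B stage and 57.8 ± 2.22 against 55 ± 1.63 at the small pre-B stage (SD, n = 4). Of the 161 kb of windows they covered 39.0 ± 3.36 against 38.3 ± 1.56 kb, 39.3 ± 0.818 against 41.0 ± 2.67 kb and 32.7 ± 1.95 against 35 ± 1.45 kb at the same stages.

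Local background over the members was higher in Mki67-/- for 23 of 45 members tested across stages, in 15 joined windows, and lower for 0, against 1.03% of genes higher and 10.1% lower. The median was 0.22 on the log2 scale for members and -0.10 for all genes. H1f3 was at 14.8 times the library background in Mki67-/- and 12 in WT (log2 difference 0.34, n = 12, exact permutation test, adjusted p = 0.0144), and H2ac12 at 10.8 and 8.15 (log2 difference 0.42, n = 12, exact permutation test, adjusted p = 0.0195). Without the 3 libraries named above 0 of 45 passed, against 0.593% of genes, and with each single library left out 12 to 27 passed, the 12 without WT small pre-B 1, WT small pre-B 3 or Mki67-/- small pre-B 1. No share over all genes is given for single libraries left out, so the 12 to 27 are not a result about the members. Fold enrichment, the ratio of summit to local background, had a median log2 difference of -0.11 for members and -0.07 for genes, with 0 members higher and 1 lower, against 0.151% of genes. Summit reads were higher by a median of 0.11 for members and differed by -0.15 for genes, and 1 member passed, against 0.555%.

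The histone genes outside the rule had lower mean ranks in Mki67-/- for 10 of the 12 tested, with a median of -2.43, and 0 passed; H3c1 and H4c1 came nearest (exact permutation test, n = 12, adjusted p = 0.0646). Their local background was higher for 12 of 12, and 5 passed, against 1.03% of all genes higher. Of the 28 regulators 0 changed rank, with a median of -0.20, and of 10 replication-independent histone variants tested 0 did. Among the 8 neighbouring non-histone genes that were tested, 1 changed, Prss16. By rank 1.88% of all genes changed.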

How the data were processed

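ATAC-seq peak lists of 24 libraries were used, 4 for each of 3 stages and 2 genotypes, grouped by the sample titles. The submitters' processing notes name Trimmomatic, MACS2, deepTools, DiffBind and DESeq2 and the mm10 build, with no versions or settings; peaks were listed per library. Each deposited list gives per entry a score, a fold enrichment (a ratio over local background), a −log10 p-value and a −log10 q-value as the authors' peak caller wrote them. Read totals were not used here; the number of libraries limits the precision.

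Overlapping entries were merged, and the 40000 strongest merged peaks of each library by −log10 q-value were kept. Genes came from RefSeq (GRCm38.p6), with windows of the gene body and 1000 bases on both sides and an overlap of at least 1 base. The percentile rank was compared by two-sided exact permutation tests within strata, for genes whose window held a peak in 4 or more of the compared libraries, with Benjamini-Hochberg adjustment over all of them. Summit reads and local background were solved from fold enrichment and p-value, assuming the Poisson model of the peak caller. The solution returned the deposited −log10 p-value of all 40000 peaks of each library to within 0.1% of that value. Local background, summit reads, promoter windows and consensus regions were added after the data had been seen. limma 3.58.1 (R 4.3.3) was an alternative, with and without the label number as a block and with background coverage. The tests were tested on simulated data. Python 3.11.15, numpy 2.4.6, scipy 1.17.1, pandas 2.3.3 and matplotlib 3.10.9 were used.

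The members, the gene lists and the measures were chosen with earlier results of these data known. Any member could be named; values per library are given for members of best and worst rank, for H1 genes and for members past the threshold, up to 5 per direction in order of p, with those sharing a peak given once and the rest as means or in the plots. Of the lists, up to 4 genes past the threshold were named per comparison. Same-numbered libraries were checked for shared deviations from their group means over 36 pairs: correlations ran from -0.338 to 0.226 and 2 were over 0.1, so the numbers were not taken to pair libraries.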

Additional observations from a re-analysis of the deposited data

Results flagged for a closer look

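Within each group of 4 libraries, a value was singled out where the gap between the highest or lowest library and its nearest neighbour, as a share of the group's range, exceeded Dixon's critical value. Of 138 groups tested over 23 measures, 9 met it; chance gives about 1 in 20 groups. H2ac6 ranked 9.48 in WT pre-pro-B 4 against 5.09 to 5.75 in the other 3 libraries, and 8.57 in Mki67-/- pre-pro-B 2 against 2.49 to 3.02. H4c3 ranked 9.17 in WT pro-B 4 against 9.45 to 9.49, and H2ac7 ranked 16.8 there against 19.4 to 19.7. Mki67 ranked 16.4 in WT pro-B 1 against 11.4 to 12.2, 20.7 in WT small pre-B 4 against 15.3 to 15.8, and 21.2 in Mki67-/- small pre-B 1 against 14.2 to 14.9. WT pre-pro-B 2 had deposited peaks in 50 member windows against 49 in each of the other 3. In WT pro-B 3 peaks covered 38.1 kb of the member windows against 39.7 to 39.8.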

How the results depend on the processing

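For the counts over members, 471 alternative values were within 1.5 times the reported count and 42 were not. The genotype count of 13 by rank became 0 with peaks ordered by fold enrichment, 7 with gene bodies only, 0 by covered bases, 3 without the 3 libraries that stood apart, 29 by summit reads, 8 with promoter windows, 6 in limma with background coverage and 6 of 39 with consensus regions. limma called 7 members by rank within pro-B and 3 within small pre-B cells (1 with background coverage). No share over all genes is set beside any count of members in this section, so these counts are not a result about the members. For local background, the genotype count of 23 became 43 relative to the median gene and 0 without the 3 libraries, that within pro-B cells 7 in limma, and the count of 16 from pre-pro-B to small pre-B cells 31 relative to the median gene and 8 without the 3 libraries. For peak number, the count of 5 between pre-pro-B and pro-B cells became 22 with entries not merged, 1 with gene bodies and 3 with an overlap of at least 50% of the peak. From pro-B to small pre-B cells the count of 3 became 7 with entries not merged and 6 with deposited lists, and from pre-pro-B to small pre-B cells the 9 became 5 with gene bodies. The cause was not tested for any of these.

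With each library left out in turn, rank counts were 26 to 31, 24 to 30 and 27 to 29 for the stage steps (the last from pre-pro-B to small pre-B) and 8 to 15 for genotype, 0 to 0 within stages and between them. Local background gave 45 to 48, 45 to 45, 10 to 19 and 12 to 27, and 0 to 0 within stages. The lows of 10 were without WT pre-pro-B 2 or Mki67-/- pre-pro-B 4, and those of 12 without WT small pre-B 1, WT small pre-B 3 or Mki67-/- small pre-B 1; without WT pre-pro-B 1, WT pro-B 1, 2 or 3, Mki67-/- pro-B 1 or 4, Mki67-/- small pre-B 4 or Mki67-/- pre-pro-B 4 the count was 13 or 14. Peak number gave 5 to 7, 4 to 7 and 9 to 10, and 0 to 0 for genotype; the 7 of the second was without Mki67-/- small pre-B 1, and without WT small pre-B 4 or any other Mki67-/- small pre-B library it was 5 or 6.

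With the label number as a replicate block in limma, the genotype count was 12 by rank and 22 for local background across stages, and 4 for local background within pro-B cells; the check gave no pairing.

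For named genes and totals, 1211 alternative values kept direction and call, 130 lost the call, 5 moved by more than the spread between libraries and 32 reversed. By covered bases, the direction turned from pre-pro-B to pro-B for H2ac10 (-73.4), H4c8 (-189), H2bc13 (79.1), H2ac13 (4.25), H2ac22 and H2bc22 (230). It turned from pro-B to small pre-B for H2ac21 (-122), H2ac20 (-155), H2bc21 (-86.4) and H2ac11 (-217). From pre-pro-B to small pre-B it turned for H4c8 (-85.2), H2ac10 (-219.5), H3c8 (-189), H2ac21 (-485), H2ac22 and H2bc22 (203), and by genotype for H2bc7 (-87.4) and H2ac7 (-101). By fold enrichment H2ac22 and H2bc22 turned from pre-pro-B to small pre-B (-0.438), and H2bc7 and H2ac7 by genotype (0.377). With gene bodies or promoter windows alike, H4c11 turned from pro-B to small pre-B (7.01), and H2ac10 (8.72) and H2ac21 (23.6) from pre-pro-B to small pre-B. By summit reads H2ac11 turned from pro-B to small pre-B (2.57) and H2ac21 from pre-pro-B to small pre-B (1.6). H2ac10 turned from pre-pro-B to pro-B with an overlap of 50% (12.2), and H2ac23 from pre-pro-B to small pre-B with windows of 2 kb (5.18). Without read totals, differences within the spread between libraries could not be resolved further.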
